A study of Mus musculus with 6 samples.

Results

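The Zfp genes are mouse genes that were named as zinc finger proteins by a number, and 349 of the 37979 genes in the deposited table carry such a symbol. The genes described here are the 207 of these whose mean over the 6 libraries was at least 1 FPKM (fragments counted on a gene, divided by transcript length in kilobases and by the mapped fragments of the library). The members were chosen by their mean level over both genotypes, so their levels are a description. The difference between the genotypes was not part of this rule, but the family was chosen with earlier results of these data known. Of the 142 Zfp genes under the mean of 1 FPKM, 15 were listed at 0 in every library and 127 were expressed at a lower level. No member was at 0 in any library, 176 of the 207 were at 1 FPKM or more in each library, and all 207 passed the filter of the test.

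The study sequenced polyadenylated RNA of the gastrocnemius (GAS), a hindlimb calf muscle, in 3 wildtype (WT) and 3 Kvβ2 knockout (KO) male mice, 20 weeks of age and untreated, with 1 library per mouse. Kvβ2 is an auxiliary subunit of voltage-gated potassium channels and is encoded by *Kcnab2*. The KO is a germline null, and both genotypes came from crosses of heterozygous parents. Replicates are called 1, 7 and 8 in each genotype, as in the labels, and where 3 values of a genotype are given they follow this order.

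*Kcnab2* had 0.233, 0.1 and 0.11 FPKM in the WT libraries. In the KO libraries it had 0, 0.0151 and 0 FPKM, so no KO library reached a WT library, and all 6 values were under the filter of the test. The estimated depth was 14020000 to 18180000 fragments in the KO and 19300000 to 20190000 fragments in the WT libraries, so that each KO library was less deep than each WT library. At 1 FPKM, a transcript of 2 kilobases rested on 28.04 to 40.38 fragments. The skeletal muscle markers *Acta1*, *Ckm*, *Mb*, *Myh1*, *Myh2*, *Mylpf*, *Tnni2* and *Tnnc2* were abundant in each library, with a summed level of 39388 to 58141 FPKM in WT and 58290 to 64740 FPKM in KO. The summed level of the smooth muscle markers was 19.7 to 24.6 FPKM in WT and 30.4 to 50.8 FPKM in KO. That of the red cell markers was 30.5 to 47.4 FPKM in WT and 59.3 to 121 FPKM in KO. As for skeletal muscle, neither sum overlapped between the genotypes. The sums of the endothelial, macrophage, fibroblast, adipocyte, Schwann cell, satellite cell and lymphocyte markers did overlap. The part of depth and of these cells in the differences below was not tested, and fewer cells of a type cannot be told apart from less RNA per cell in whole muscle.

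Most Zfp proteins hold tandem C2H2 zinc fingers, in which a pair of cysteines and a pair of histidines grip a zinc ion and the residues between them read bases of DNA. Many also begin with a KRAB domain, which binds the scaffold TRIM28 and through it recruits histone deacetylases, HP1 proteins and the methyltransferase SETDB1, so that the bound DNA is silenced, transposable elements foremost. Others lack a KRAB domain and act as activators, RNA-binding proteins or ubiquitin ligases, and *Zfp36* carries fingers of the CCCH kind that bind AU-rich RNA. KRAB genes lie in clusters of tandem duplicates.

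One finger each of 4 genes with large differences between the genotypes is printed 5′ to 3′ on the coding strand. These fingers serve as examples of the fold at low and at high GC content. The genes were picked for their large differences, among those with a finger of a fixed spacing. *Zfp35*, the largest fall, was left out of this choice, and *Zfp414*, the largest rise, had no finger of this spacing. The capitals mark the codons of the cysteines and histidines that hold the zinc. *Zfp931*, a KRAB gene, and *Zfp260* were lower in KO muscle, and *Zfp64* and *Zfp524* were higher. The fingers lie in the coding exons at chr2:178068217-178068279 (minus strand, exon 4), chr7:30104749-30104811 (plus strand, exon 3), chr2:168935383-168935445 (minus strand, exon 5) and chr7:5017805-5017867 (plus strand, exon 3) of GRCm38, in this order.
Zfp931: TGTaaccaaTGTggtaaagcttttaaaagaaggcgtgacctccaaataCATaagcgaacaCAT
Zfp260: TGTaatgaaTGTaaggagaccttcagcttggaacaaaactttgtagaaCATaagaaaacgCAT
Zfp64: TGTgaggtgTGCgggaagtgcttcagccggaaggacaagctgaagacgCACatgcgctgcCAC
Zfp524: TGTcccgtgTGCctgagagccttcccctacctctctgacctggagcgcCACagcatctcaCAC
All 4 have the same spacing of the zinc ligands over 21 codons, which follows from how they were picked. They differ in the third codon position, where 5 and 9 of the 21 codons of *Zfp931* and *Zfp260* end in G or C, against 20 and 17 in *Zfp64* and *Zfp524*. Over the whole coding sequence, the third position GC content was 28.5% in *Zfp931*, 45.7% in *Zfp260*, 78.3% in *Zfp64* and 57.3% in *Zfp524*. The GC content of the printed stretch is 38.1% in *Zfp931*, 34.9% in *Zfp260*, 60.3% in *Zfp64* and 61.9% in *Zfp524*. For comparison, the first CCCH finger of *Zfp36* at chr7:28378158-28378217 (minus strand, exon 2), with the codons of its zinc ligands in capitals, has 13 of 20 codons that end in G or C.
Zfp36: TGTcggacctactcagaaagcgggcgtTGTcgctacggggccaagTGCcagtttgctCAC

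In KO muscle, more Zfp genes lay under their WT level than above it. The log2 fold change (KO against WT, on the scale of log2(FPKM + 0.1)) was under 0 in 138 and above 0 in 69 of the 207 genes, with a median of -0.159 beside 0.010 for all 12334 tested genes. In 60 Zfp genes each KO library lay under each WT library, which is 29.0% of the genes beside 16.2% of all tested genes. In 20 Zfp genes each KO library lay above each WT library, 9.66% beside 18.3%, and in 127 the genotypes overlapped. At an unadjusted p under 0.05 (limma), 37 Zfp genes were lower, 17.9% beside 10.9% of all tested genes, and 18 were higher, 8.70% beside 15.3%. After quantile normalization the split was 58 lower and 11 higher, after scaling to a common median 55 and 14, and after a correction for transcript length 57 and 13. In these 3 settings 14.5% to 17.1% of all tested genes were lower and 11.8% to 13.5% higher. After the correction for GC content described below, 10 of 203 Zfp genes were lower and 4 higher. These shares were 4.93% and 1.97%, beside 5.43% and 5.37% of all tested genes. Without KO replicate 7, 24 were lower and 12 higher, with 6.88% of all tested genes lower and 11.3% higher. Without WT replicate 7, 24 were lower and 10 higher, with 6.41% and 11.8% of all tested genes.

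Across all tested genes, 31 passed an adjusted p under 0.05 in the higher direction (0.251%) and 9 in the lower direction (0.073%). This split was 11 and 7 after quantile normalization and 8 and 5 after the length correction. It turned to 9 higher and 11 lower with no filter, 6 and 8 after the correction for GC content, 6 and 10 without WT replicate 1 and 6 and 9 without WT replicate 7, and was 19 and 19 without WT replicate 8 and 6 and 6 without KO replicate 8. Among the Zfp genes, 1 fell and none rose by this test (limma, Benjamini-Hochberg adjustment). The count of higher Zfp genes at an unadjusted p under 0.05 was the 18 given above.

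*Zfp35* (ENSMUSG00000063281) was the Zfp gene that fell. It encodes a protein in which 17 C2H2 fingers follow each other and no KRAB domain was matched. Its level was 5.51, 5.17 and 5.90 FPKM in WT and 2.83, 2.89 and 3.11 FPKM in KO. Each KO library was close to the others and well under the lowest WT library. The mean fell from 5.53 ± 0.365 to 2.94 ± 0.146 FPKM (SD, n = 3), a log2 fold change of -0.88 (standard error 0.12, limma with Benjamini-Hochberg adjustment, adjusted p = 0.0435), lower in 3 of 3 KO libraries. An exact permutation test (two-sided) gave p = 0.1, the smallest that 3 against 3 allows. Leaving out each library in turn gave a log2 fold change of -0.93 to -0.84, but the adjusted p was then above the threshold in each of the 6 cases.

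**Figure D1:**
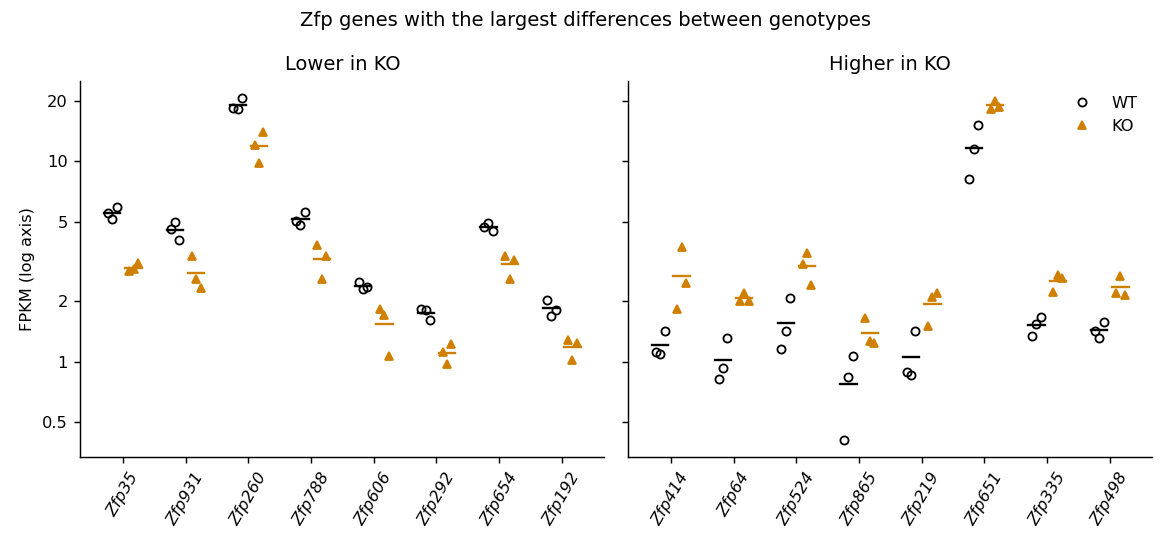
FPKM on a log axis of the 8 Zfp genes with the largest differences in each direction, among those with no overlap between genotypes. Open circles are WT and filled triangles KO libraries (n = 3 each), horizontal lines are means, and each KO point lies on 1 side of the WT points since the genes were picked that way.

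Among genes without overlap, the other 7 of the 8 largest differences toward lower levels had log2 fold changes of -0.70 to -0.61. None of these 7 passed the adjusted threshold. Genes with overlap were left out of this ranking, among them *Zfp939* (-0.69). *Zfp931*, a KRAB gene with 7 fingers, was at 4.57, 4.95 and 4.05 FPKM in WT and at 3.37, 2.59 and 2.34 FPKM in KO (log2 fold change -0.70, standard error 0.17, limma adjusted p = 0.0785). *Zfp260*, a regulator known from heart muscle and without a KRAB match, was at 18.4, 18.1 and 20.6 FPKM in WT and at 12, 9.76 and 13.9 FPKM in KO, a log2 fold change of -0.69 (standard error 0.15, limma adjusted p = 0.075). This was the most abundant gene of the group. Its lowest WT library (18.1 FPKM) stood above its highest KO library (13.9 FPKM), which follows from how the genes were picked. *Zfp788* (KRAB, 23 fingers) had a mean of 5.14 ± 0.378 FPKM in WT and 3.26 ± 0.622 FPKM in KO (SD, n = 3), and *Zfp606* (KRAB, 13 fingers) had 2.38 ± 0.0934 and 1.54 ± 0.411 FPKM. *Zfp292*, linked to growth hormone expression, was at 1.84, 1.81 and 1.62 FPKM in WT and at 1.12, 0.978 and 1.22 FPKM in KO. *Zfp192* and *Zfp654* had the smallest values of the 8, both at -0.61. KO replicate 7 was the lowest KO library in 5 of these 7 genes.

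Among genes without overlap, the 8 largest differences toward higher levels were log2 fold changes of 0.67 to 1.04. Again none of the 8 passed the adjusted threshold. Genes with overlap were left out here too, among them *Zfp423* (0.69). None of the 8 encodes a KRAB match. *Zfp414* was at 1.12, 1.10 and 1.42 FPKM in WT and at 1.84, 3.74 and 2.48 FPKM in KO (log2 fold change 1.04, standard error 0.27, limma adjusted p = 0.0854). *Zfp64*, known as a coactivator of Notch target genes, was at 0.824, 0.930 and 1.31 FPKM in WT and at 2.02, 2.19 and 2.02 FPKM in KO, a log2 fold change of 0.98 (standard error 0.21, limma adjusted p = 0.0724). The KO values of *Zfp64* lay close together, while those of *Zfp414* were spread by KO replicate 7. *Zfp524*, whose human counterpart binds telomeric repeats, was at 1.16, 1.42 and 2.08 FPKM in WT and at 3.07, 3.49 and 2.41 FPKM in KO. *Zfp651* was the most abundant of the 8, at 8.13, 11.5 and 15.1 FPKM in WT and at 18.2, 20 and 18.7 FPKM in KO. In *Zfp865*, *Zfp219*, *Zfp335* and *Zfp498* the mean was 0.774 to 1.52 FPKM in WT and 1.39 to 2.52 FPKM in KO. WT replicate 8 was the highest WT library in each of the 8 genes.

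The family was then divided by whether a KRAB domain was matched. A KRAB A box was matched in the longest annotated protein of 85 members and not in that of 115, and 7 members had no annotated coding sequence to search. KRAB genes that the pattern missed would count among the 115, and their number was not tested. The same pattern matched 0.4451% of the 21120 genes whose proteins hold no C2H2 finger. Of the 85 KRAB genes, 72 had a log2 fold change under 0 and 13 above 0, with a median of -0.266. Of the 115 other genes, 60 were under 0 and 55 above 0, with a median of -0.035. The range was -0.70 to 0.37 in the KRAB genes and -0.88 to 1.04 in the others.

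The classes also differed in how often the genotypes separated. In 33 KRAB genes (38.8%) each KO library lay under each WT library, and in none did each lie above. Among the other genes these numbers were 26 (22.6%) and 20 (17.4%), and over all tested genes the shares were 16.2% and 18.3%. At an unadjusted p under 0.05, 18 KRAB genes were lower (21.2%) and none was higher, while 18 of the other genes were lower and 18 higher (15.7% each). The background of all tested genes given above, 10.9% lower and 15.3% higher, holds for both classes. The count of lower KRAB genes was 9 without KO replicate 7, 8 without WT replicate 1 and 10 without WT replicate 7, where 6.88%, 8.60% and 6.41% of all tested genes were lower. Without WT replicate 1 the KRAB share was thus near that of all tested genes. The KRAB median was -0.361 to -0.184 over the 6 omissions.

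**Figure D2:**
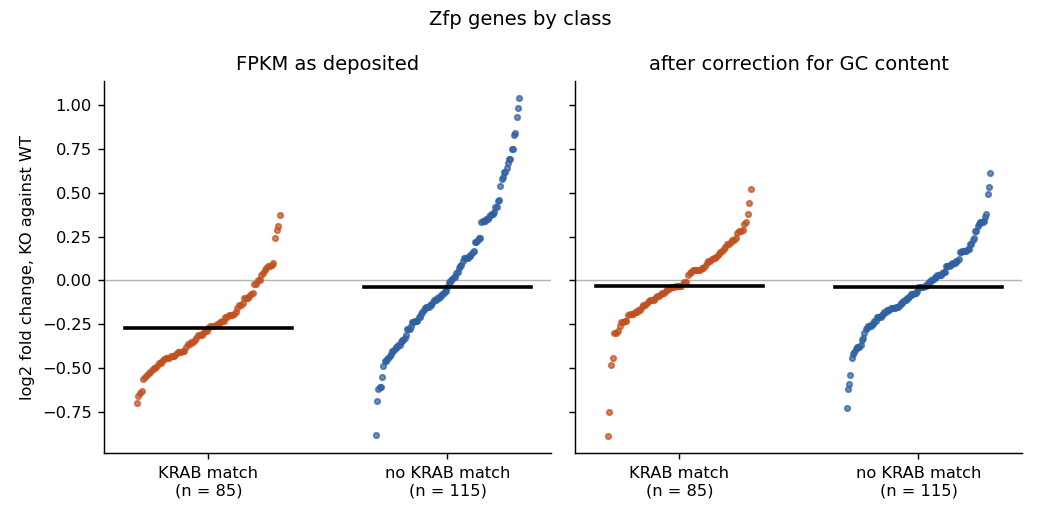
Log2 fold change of each Zfp gene (KO against WT), sorted within the KRAB class (n = 85) and the class without a KRAB match (n = 115), as deposited on the left and after a correction for GC content on the right. Points are genes and lines are medians, which lie at -0.266 and -0.035 on the left and at -0.028 and -0.044 on the right.

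The library values of the KRAB class did not overlap between the genotypes. The median deviation of the 85 genes from their mean log2 level was 0.16, 0.11 and 0.13 in WT, and -0.02, -0.30 and -0.09 in KO. KO replicate 7 was farthest from the WT libraries and KO replicate 1 nearest. Their summed level was 293, 271 and 275 FPKM in WT and 247, 203 and 236 FPKM in KO. The 115 other genes had median deviations of -0.07, 0.06 and 0.08 in WT and -0.01, -0.10 and 0.01 in KO, which overlap. For all tested genes the median deviation stayed between -0.03 and 0.03 in the 6 libraries.

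**Figure D3:**
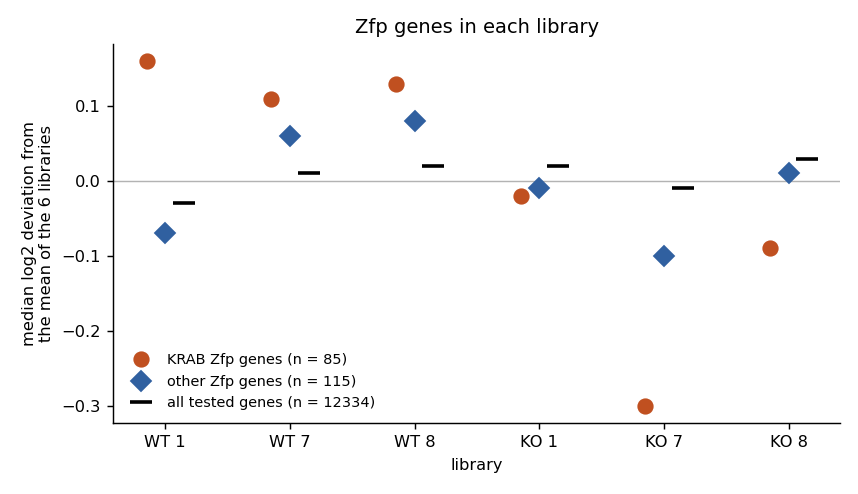
Median deviation of the log2 level from the mean of the 6 libraries, for the KRAB genes (circles, n = 85), the other Zfp genes (diamonds, n = 115) and all tested genes (bars, n = 12334), in each library. The KRAB circles lie at 0.11 to 0.16 in WT and at -0.30 to -0.02 in KO, and the diamonds of the genotypes overlap.

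The classes also differed in sequence features, which the rule did not use. KRAB genes held a median of 12 C2H2 fingers against 7 in the others. The median GC content of the annotated transcripts was 42.9% in KRAB genes and 50.2% in the others, and the median GC content of the third codon positions was 41.8% and 59.2%. The median log2 fold change was -0.057 in the 35 genes with 0 to 4 fingers and -0.088 in the 64 with 5 to 9. It was -0.244 in the 64 with 10 to 14 and -0.252 in the 37 with 15 or more. The median GC content of these groups was 49.5%, 48.8%, 44.8% and 42.8%, in this order. After the correction for GC content described below, their medians were 0.02, -0.045, -0.041 and 0.058. As a description, since the level chose the members, the median level was 2.12 FPKM in KRAB genes (highest 10.7 FPKM) and 3.67 FPKM in the others (highest 172 FPKM).

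Base composition moved with these differences in the Zfp genes as it did in all tested genes. Across genes, which share the same 6 libraries and are not independent replicates, Spearman's rho between GC content and the log2 fold change was 0.74 in the 203 Zfp genes with a GC value and 0.70 in 11985 tested genes. It was 0.54 in the KRAB genes and 0.80 in the others. Under 40% GC the median log2 fold change was -0.44 in 22 Zfp genes and -0.41 in all tested genes of that range. From 40% to 44% these medians were -0.33 in 55 Zfp genes and -0.30, from 52% to 56% they were 0.14 in 25 Zfp genes and 0.24, and from 56% to 60% they were 0.38 in 25 Zfp genes and 0.51. Within GC ranges the order of the classes varied. The medians of KRAB and other genes were -0.33 (n = 31) and -0.31 (n = 24) from 40% to 44%, -0.16 (n = 21) and -0.24 (n = 15) from 44% to 48%, and -0.17 (n = 10) and -0.07 (n = 22) from 48% to 52%. From 56% to 60% they were -0.39 in only 2 KRAB genes and 0.42 in 23 others.

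**Figure D4:**
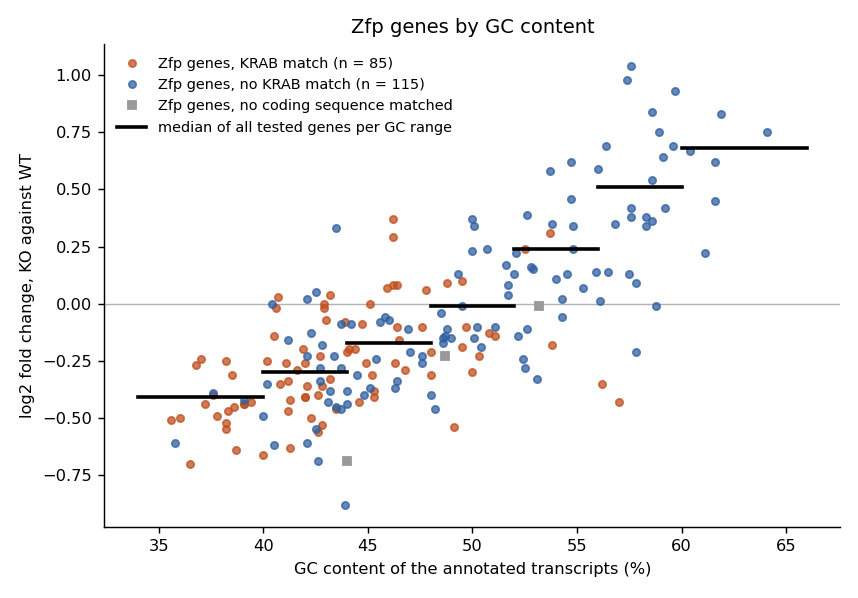
Log2 fold change (KO against WT) of each Zfp gene against the GC content of its annotated transcripts in percent, for KRAB genes (n = 85), genes without a KRAB match (n = 115) and genes without a coding sequence. Black lines are medians of all tested genes in 7 GC ranges, from -0.41 under 40% to 0.68 from 60% on, and both classes of Zfp genes spread around them.

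With each library's dependence on GC content removed, the difference between the classes was small. The median log2 fold change was then -0.028 in KRAB genes and -0.044 in the others, and -0.042 over the 203 Zfp genes beside -0.002 over all tested genes. At an unadjusted p under 0.05, 10 Zfp genes were lower (4.93% beside 5.43% of all tested genes) and 4 were higher (1.97% beside 5.37%), and none passed the adjusted threshold, with 0.286 as the lowest limma adjusted p. *Zfp35* was at -0.62 after the correction (standard error 0.13, limma unadjusted p = 0.00153). Of the other 7 largest without overlap toward lower levels, *Zfp260* was then at -0.39, *Zfp606* and *Zfp192* at -0.30 and *Zfp788* at -0.29. *Zfp292* was at -0.27, *Zfp931* at -0.13 and *Zfp654* at 0.03. Of the 8 largest without overlap toward higher levels, *Zfp414* was at 0.53, *Zfp64* at 0.49, *Zfp524* at 0.31 and *Zfp865* at 0.28. *Zfp651* was at 0.17, *Zfp219* at 0.16, *Zfp335* at 0.08 and *Zfp498* at 0.03. Each of these 15 was smaller in size than before the correction. *Zfp467*, *Zfp777* and *Zfp692*, with a GC content of 57.8% to 58.8%, were at -0.73, -0.59 and -0.42 after the correction, from -0.21, -0.01 and 0.09 before it. *Zfp688*, a KRAB gene, was at -0.75, from -0.35, and *Zfp3*, without overlap before the correction, was at -0.54, from -0.33. *Zfp655*, at 43.5% GC, was at 0.61, from 0.33. Whether GC content causes these differences was not tested.

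The members are spread over 20 chromosomes, with 203 placed on GRCm38. Chromosome 7 holds 50 of them, 21 with a KRAB match, and chromosome 17 holds 21, 16 with a KRAB match. The median log2 fold change was -0.34 on chromosome 17, where the median GC content was 40.7%, and -0.10 on chromosome 7, where it was 49.0%. A further Zfp member within 200000 bases was found for 96 genes, 52 of them with a KRAB match. Their median log2 fold change was -0.22 and their median GC content 44.5%. The 107 members with no such neighbour, 33 of them with a KRAB match, had a median log2 fold change of -0.11 and a median GC content of 47.0%. Near-identical KRAB copies in such clusters can share fragments in ways that FPKM do not show.

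The most abundant Zfp gene was *Zfp106*, an RNA-binding protein that mice need to keep motor neurons and muscle innervated. It was at 180, 167 and 215 FPKM in WT and at 148, 153 and 168 FPKM in KO, and the highest KO library overlapped the lowest WT library. *Zfp91*, a ubiquitin ligase of the noncanonical NF-κB pathway, was at 65.8, 63.8 and 65.9 FPKM in WT and at 57.4, 43.5 and 51.1 FPKM in KO, without overlap (log2 fold change -0.37, standard error 0.12, limma adjusted p = 0.124). *Zfp238*, a repressor that acts in muscle and neuronal differentiation, was at 35.6, 37.4 and 37.3 FPKM in WT and at 32.6, 24.1 and 29.4 FPKM in KO, also without overlap and with the same log2 fold change of -0.37. After the correction for GC content *Zfp91* was at -0.23 and *Zfp238* at -0.15. *Zfp91* and *Zfp238* were both lowest in KO replicate 7. *Zfp207*, which binds microtubules and splicing factors, had means of 29.4 ± 1.22 FPKM in WT and 27.6 ± 2.85 FPKM in KO (SD, n = 3), and *Zfp467*, which favours fat over bone formation, had 30.5 ± 6.26 and 26.2 ± 2.87 FPKM. Before the correction, neither *Zfp207* nor *Zfp467* differed beyond the spread of the libraries. After it, *Zfp207* was at 0.18 (standard error 0.11) and *Zfp467* at -0.73 (standard error 0.16, limma adjusted p = 0.286).

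Zfp proteins with roles in RNA and translation showed values on both sides of 0. *Zfp598*, a ubiquitin ligase that senses collided ribosomes, was at 3.46, 4.69 and 5.81 FPKM in WT and at 7.31, 7.41 and 6.69 FPKM in KO, a log2 fold change of 0.64 (standard error 0.19, limma adjusted p = 0.105) that was 0.05 after the correction for GC content. *Zfp36*, or tristetraprolin, which binds AU-rich elements and brings the deadenylase to inflammatory mRNAs, was at 8.66, 4.13 and 6.05 FPKM in WT and at 8.41, 9.31 and 10.3 FPKM in KO, with a log2 fold change of 0.62 and of 0.32 after that correction. WT replicate 1 overlapped the KO libraries in *Zfp36* and was above WT replicates 7 and 8. *Zfp622*, *Zfp830* and *Zfp326*, which act in ribosome maturation, in splicing and in transcript elongation, had log2 fold changes of -0.08, -0.15 and 0.00 with overlap between the genotypes. *Zfp593* and *Zfp697*, at means of 0.426 and 0.127 FPKM, were under the level of the members. Of the 15 tested genes of the CCCH paralogs and the deadenylases, none passed the adjusted threshold, and at an unadjusted p under 0.05 none was higher and 3 were lower, beside 15.3% and 10.9% of all tested genes. The lower ones included the deadenylase subunits *Pan3* (-0.62) and *Cnot7* (-0.49), which were at -0.35 and -0.12 after the correction for GC content.

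Promoter-binding factors were also mixed. *Zfp335*, a coactivator needed in neural progenitors and T cells, was at 1.35, 1.55 and 1.67 FPKM in WT and at 2.22, 2.71 and 2.62 FPKM in KO (log2 fold change 0.69, standard error 0.16, limma adjusted p = 0.0777), and its log2 fold change was 0.08 after the correction for GC content. *Zfp281*, which binds GC-rich promoters, was at 2.73, 2.76 and 2.50 FPKM in WT and at 2.20, 1.77 and 1.91 FPKM in KO, a log2 fold change of -0.43 (standard error 0.15, limma adjusted p = 0.135), and of -0.14 after that correction. *Zfp148* (-0.23), *Zfp143* (-0.07) and *Zfp384* (0.15) overlapped between the genotypes. Of the 5 factors, *Zfp335* had the highest and *Zfp148* the lowest GC content, 59.6% and 42.1%.

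KRAB proteins with a known target are those of imprint and retroelement silencing. *Zfp445*, which maintains methylation at imprinted regions, was at 9.42, 8.46 and 8.57 FPKM in WT and at 6.91, 5.57 and 7.56 FPKM in KO, without overlap (log2 fold change -0.41, standard error 0.14, limma adjusted p = 0.137), and it was at -0.19 after the correction for GC content. *Zfp932* (-0.25) and *Zfp809* (0.08), both silencers of retroviral elements, and *Zfp568* (-0.10), which silences a placental promoter of *Igf2*, overlapped between the genotypes. *Zfp809* was spread in KO, from 1.27 FPKM in replicate 7 to 2.66 FPKM in replicate 1. The imprint regulator *Zfp57*, at a mean of 0.381 FPKM, was under the level of the members.

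The KRAB co-repressor gene *Trim28* differed between the genotypes by less than the spread of the libraries. It had means of 21.3 ± 1.50 FPKM in WT and 22.1 ± 2.85 FPKM in KO (SD, n = 3), a log2 fold change of 0.04 (standard error 0.13, limma adjusted p = 0.850), which was -0.29 (standard error 0.14) after the correction for GC content. *Setdb1* was at -0.03 and the chromatin remodeler *Chd4* at 0.04. Of the 17 tested entries of this machinery, none passed the adjusted threshold, and at an unadjusted p under 0.05, 3 were higher and 5 lower, beside 15.3% and 10.9% of all tested genes. The largest difference in each direction was that of *Chd3* (0.51) and of the HP1 gene *Cbx5* (-0.43), which were at 0.12 and -0.14 after the correction for GC content. *Atf7ip* has 2 of these entries, at 0.33 and -0.28. The entry at 0.33 was at 0.58 after that correction, and the other has no GC value.

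The 7 regulators of fat and energy metabolism all overlapped between the genotypes, as did 8084 of all 12334 tested genes. *Zfp423*, which commits cells to the preadipocyte fate, was at 0.730, 0.803 and 1.79 FPKM in WT and at 0.683, 2.93 and 2.42 FPKM in KO, and KO replicate 1 lay under all WT libraries. *Zfp521* and *Zfp516*, which act against and for fat cell formation, had log2 fold changes of 0.23 and 0.24, and *Zfp746*, a repressor of *Ppargc1a*, had 0.13. *Zfp395* was at 0.14, *Zfp467* at -0.21 and *Zfp407*, just under the level of the members, at -0.13. After the correction for GC content, *Zfp423* was at 0.28, *Zfp521* at 0.23 and *Zfp407* at 0.14. *Zfp516* was then at -0.07, *Zfp746* at -0.16, *Zfp395* at -0.28 and *Zfp467* at -0.73. The summed level of the adipocyte markers *Adipoq*, *Plin1*, *Cidec* and *Lep* was 3.43 to 17 FPKM in WT libraries and 16.5 to 78.5 FPKM in KO libraries, and its part in these values was not tested.

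Among genes of growth and chromatin, *Zfp644*, a partner of the histone methyltransferase G9a, was at 7.51, 8.21 and 8.47 FPKM in WT and at 5.52, 4.90 and 6.06 FPKM in KO (log2 fold change -0.55, standard error 0.12, limma adjusted p = 0.075). *Zfp219*, a partner of SOX9, was at 0.892, 0.861 and 1.43 FPKM in WT and at 1.51, 2.10 and 2.19 FPKM in KO, a log2 fold change of 0.83 (standard error 0.25, limma adjusted p = 0.109). Both were without overlap between the genotypes, and after the correction for GC content they were at -0.25 and 0.16. *Zfp703* (0.45, and -0.21 after that correction), a co-repressor, and *Zfp217* (0.04), which works with histone demethylases, overlapped. *Zfp503*, at a mean of 0.854 FPKM, was under the level of the members and had a log2 fold change of -0.57, and of -1.15 after that correction.

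Other zinc finger families were read by symbol for comparison. The median log2 fold change was -0.022 over 26 tested Zbtb genes, -0.132 over 12 Zscan and Zkscan genes, -0.161 over 13 Zc3h genes and 0.161 over 20 Klf and Sp genes. No test of the difference between families was run.

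At the threshold, *Zfp939*, *Zfp882* and *Zfp879* were the members nearest to it, with means of 1.02, 1.03 and 1.06 FPKM. *Zfp94*, *Zfp449* and *Zfp407* were just outside, at 0.997, 0.988 and 0.971 FPKM. The 65 tested Zfp genes under 1 FPKM had a median log2 fold change of -0.132, with 41 under 0 and 24 above 0.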

How the data were processed

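RNA-seq of GAS muscle from 3 WT and 3 KO mice was used, grouped by the genotype in the labels. The authors mapped reads to GRCm38 with TopHat and deposited FPKM values from Cufflinks, 1 column per library, without counts. The versions and the annotation release are not given in the sources used here. FPKM hold no depth, so fragments per library were estimated from the steps of low values of genes with 1 transcript of 1500 to 6000 bases, of which 84.52% to 89.59% were whole within 0.15. At most 1 value was equal between any libraries among 14983 genes above 0 in all 6. The paper calls the young WT mice littermates of the KO mice, but which of these mice shared a litter or batch is not given in the sources used here.

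Members and lists were chosen with earlier results of these data known. The 12334 genes whose mean reached 0.5 FPKM were tested on log2(FPKM + 0.1) with limma 3.58.1 in R 4.3.3, with a variance trend and Benjamini-Hochberg adjustment over all of them, with 0.05 as the threshold of the adjusted p. This scale understates the change of low genes. Single values were tested by an exact permutation test, two-sided. The script was tested on simulated data. GC content, length, exons and proteins came from GENCODE vM21. In the longest annotated protein of each gene, fingers were matched as Cys-(2 or 4)-Cys-12-His-(3 to 5)-His, and KRAB by an A-box pattern in the first 250 residues. For GC content, each library's deviation was fitted by loess and subtracted.

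Zfp genes were named when called, when among the 8 largest differences in each direction without overlap, among the 5 most abundant or the 3 nearest each side of 1 FPKM, or when listed for a known role. Genes named for their values after GC correction (*Zfp777*, *Zfp692*, *Zfp688*, *Zfp3*, *Zfp655*) were chosen after those values were seen. *Zfp664* and *Zfp708* share a symbol with another entry. Alternatives covered the pseudocount, filter, scaling, variance model, array weights, replicate number, GC content, length, shared symbols, a member threshold of 2 FPKM and leaving out each library. Plots were made in Python 3.11.15 with matplotlib 3.10.9.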

Additional observations from a re-analysis of the deposited data

How the results depend on the processing

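*Zfp35* passed the adjusted threshold under a pseudocount of 0.01, a filter of 1 FPKM, scaling to a common median and with shared symbols left out. No Zfp gene passed it with a pseudocount of 1, no filter, quantile normalization, no variance trend, GC or length correction, the replicate block alone or with GC correction, or any library left out (0 in each), and 51 passed with array weights. In these settings the calls over all tested genes, 40 as reported, were 11 with a pseudocount of 1, 20 with no filter, 18 after quantile normalization, 19 without the variance trend, 3147 with array weights, 13 with the replicate block (6 higher and 7 lower), 14 after GC correction, 12 with both, 13 after length correction, and 11 to 38 with a library left out. Whether the numbers pair the mice is not given in the sources used here. Deviations of same-numbered libraries correlated at -0.0252, -0.0797 and 0.0343, and those of differently numbered libraries at -0.0657 to 0.086. With so few libraries these values cannot decide whether mice were paired. The median of the Zfp genes was -0.042 after GC correction, with and without the replicate block, and -0.218 to -0.113 with a library left out. The count of lower genes at an unadjusted p under 0.05, 37 as reported, was 58 after quantile normalization, 64 with array weights, 57 after length correction, 10 after GC correction, 8 with the replicate block as well, and 24 to 39 with a library left out. The count of higher genes, 18 as reported, was 11, 28, 13, 4 and 3 in these settings, 10 to 17 with a library left out, and 10 with members at 2 FPKM or more. After GC correction, 3 of the 10 lower genes were among the 37 and 2 of the 4 higher among the 18. The causes were not tested.

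Of the values of named genes under the alternatives, 843 kept direction and side of the threshold, 20 gained a call, 14 lost one and 51 changed sign. After GC correction, with and without the replicate block, log2 fold changes that changed sign were *Zfp654* 0.03, *Zfp207* 0.18, *Zfp882* 0.22, *Zfp407* 0.14, *Zfp622* 0.10, *Zfp148* 0.08, *Zfp143* 0.09, *Zfp384* -0.03, *Zfp932* 0.18, *Zfp746* -0.16, *Zfp395* -0.28, *Zfp516* -0.07, *Zfp217* -0.04 and *Zfp703* -0.21. Scaling to a common median gave *Zfp326* -0.05 and *Zfp217* -0.01, quantile normalization *Zfp879* -0.03, *Zfp326* -0.05, *Zfp809* -0.03 and *Zfp217* -0.08, array weights *Zfp326* -0.07, *Zfp148* 0.03 and *Zfp932* 0.02, and length correction *Zfp326* -0.08 and *Zfp809* -0.04. With a library left out, the ranges that crossed 0 were *Zfp882* -0.26 to 0.04, *Zfp809* -0.18 to 0.32, *Zfp143* -0.15 to 0.02, *Zfp326* -0.14 to 0.08, *Zfp217* -0.18 to 0.20, *Zfp395* -0.07 to 0.29 and *Zfp568* -0.28 to 0.07. Depth, lower in each KO library, limits the genes near 1 FPKM most.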
